A study of Leucoraja erinaceus with 6 samples.

Results

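The voltage-gated sodium and calcium channel genes of the little skate (Leucoraja erinacea) were followed in dorsal root ganglia (DRG) and in spinal cord. They were chosen by name, with earlier results of these data known. The rule took every row of the count table whose symbol begins with scn and a digit, cacna, cacnb, cacng, nalcn or catsper. This took 13 rows of 22111: 11 calcium channel subunit genes, the sodium leak channel gene nalcn and the sodium channel beta subunit gene scn3b. No catsper row and no row for a pore-forming sodium channel alpha subunit matched, and rows without a symbol were not analysed here, so the sodium side of the set is a single auxiliary subunit. The a or b at the end of a symbol marks a gene copy in zebrafish nomenclature, and a second copy carried without a symbol would not be among the 13.

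DRG, the ganglia that hold the cell bodies of sensory neurons with their glia, were compared with the spinal cord from the same stage, stage 32. Each tissue had 3 bulk RNA-seq libraries from untreated wild-type embryos, and each library was a pool of 3 to 4 embryos. Pool numbers 815, 816 and 818 mark replicates 1, 2 and 3 of both tissues. The labels name the 3 pools of a tissue biological replicates, and the labelled cell type is a mixture of neurons and glia, so fewer cells of a type and less RNA per cell cannot be told apart in any value below.

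Voltage-gated calcium channels open when a cell depolarises and let calcium in, which triggers transmitter release, repetitive firing and changes in gene expression. A pore-forming alpha1 subunit sets the channel type, and alpha2delta and beta subunits carry it to the membrane and tune it. T-type channels open near the resting potential, whereas L-type and N-type channels need a stronger depolarisation. The sodium leak channel NALCN carries a background sodium current that holds neurons closer to threshold, and sodium channel beta subunits modulate the gating and surface level of the alpha subunits that produce the action potential. In rodents, sensory neurons of the DRG are known for N-type channels at their spinal terminals and for T-type currents carried by the product of Cacna1h.

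Named genes held 25963856 to 26542044 counts in DRG libraries and 24342810 to 28782887 in spinal cord libraries. Levels are given as CPM, counts scaled to library size with TMM factors, on which 3 counts stood at 0.136 to 0.176 in DRG and at 0.0764 to 0.0888 in spinal cord. The tissue labels were checked against defining markers. The sensory transcription factor gene pou4f3 averaged 33.7 ± 2.23 CPM in DRG and 0.995 ± 0.0757 CPM in cord (± SD over 3 libraries per tissue), and the inhibitory neuron gene gad2 averaged 3.15 ± 0.861 CPM in DRG and 294 ± 19.6 CPM in cord. General neuron markers went both ways: 4 of 10 were higher in DRG and 4 lower (edgeR adjusted p below 0.05). Of all genes tested, 27.8% were higher and 28.1% lower. The neuron markers summed to 20903 to 22827 CPM in DRG against 4800 to 5160 CPM in cord. Of 13 connective tissue markers, 5 matched a row, of which 4 were higher in DRG and 1 lower. The lower gene, pdgfrb, averaged 2.84 CPM in DRG and 20.0 CPM in cord. The list summed to 1419 to 3464 CPM in DRG and to 121 to 156 CPM in cord, with the highest DRG value in replicate 2. Most of the DRG sum came from col1a2, at 2017, 3054 and 1178 CPM in replicates 1, 2 and 3. The share of any of these cell types in the channel results was not tested.

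A total of 12 members passed the filter on low counts, each of them on the counts of either tissue taken alone, and 11 of these 12 differed between the tissues (quasi-likelihood test of edgeR, adjusted p below 0.05). Over all 16112 genes tested the same call was made for 55.9%. In DRG, 4 members were higher, scn3b, cacna1ha, cacna2d3a and cacnb4a, where 27.8% of all genes were called higher. The 7 lower members were cacna1c, cacna1g, cacna1ia, cacna2d2a, cacnb1, cacng4b and nalcn, where 28.1% of all genes were called lower. Log2 fold changes are DRG over spinal cord. Their median over the 12 members was -0.87, beside -0.04 for all genes tested. CPM of the tissues did not overlap for 11 of the 13 members, against 65.0% of all genes tested, and the exceptions were cacna1ba and cacna2d4a. All of these directions are on the TMM scale. With library sizes alone, the median of all genes moved to -0.99. On that scale 1 member, scn3b, was still called higher, while the count of members called lower was again 7. The calls of cacna1ha, cacnb4a and cacna2d3a were lost, and cacna2d3a stood at -0.05.

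**Figure D1:**
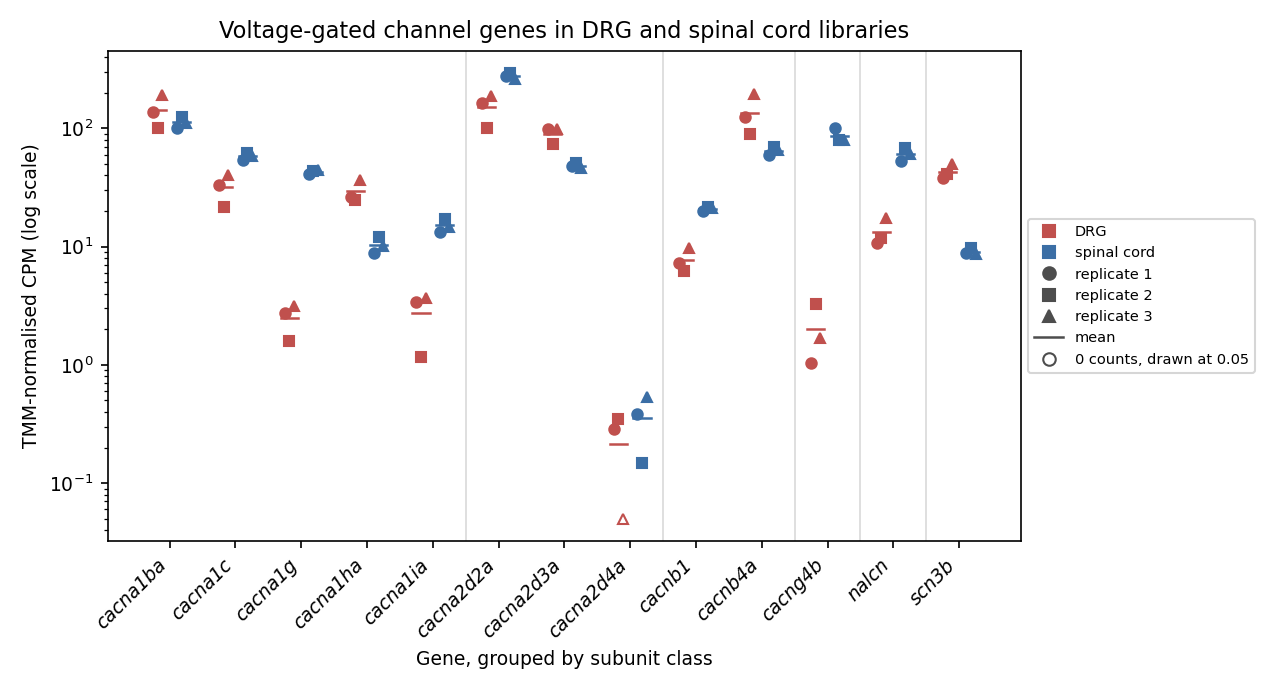
TMM-normalised CPM of the 13 channel genes in each library on a log axis, with DRG in red at the left of each gene and spinal cord in blue at the right; marker shapes are replicates and bars are means of 3 libraries. The groups are furthest apart for cacng4b and cacna1g, which average 2.00 and 2.50 CPM in DRG, and they overlap for cacna1ba and cacna2d4a.

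Among the pore-forming alpha1 genes, the T-type genes separated the tissues most, and they did so in opposite directions. The gene cacna1ha encodes the T-type pore known in mammals as Cav3.2. It had 26.2, 24.8 and 36.7 CPM in DRG replicates 1, 2 and 3, against 8.81, 12.0 and 10.2 CPM in spinal cord replicates 1, 2 and 3. Every DRG library was above every cord library. The log2 fold change was 1.504 ± 0.206 SE (edgeR adjusted p = 0.000478), a 2.84-fold higher level in DRG, and 87.0% of all genes tested had a lower fold change.

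The T-type gene cacna1g, known in mammals for burst firing in thalamus and other central neurons, went the other way. Its level was 2.75, 1.58 and 3.16 CPM in DRG, against 41.1, 43.5 and 44.2 CPM in spinal cord. The cord libraries lay within a narrow band and all DRG libraries were far below it. The log2 fold change was -4.09 ± 0.25 SE (edgeR adjusted p = 1.03e-05), so cord held 17.0 times the DRG level. Raw counts of 27 to 70 in each DRG library put the gene above the floor of 3 counts there.

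The third T-type gene, cacna1ia, whose mammalian counterpart carries slowly inactivating T-type current, had 3.37, 1.17 and 3.66 CPM in DRG, against 13.3, 17.3 and 14.7 CPM in spinal cord. The tissues did not overlap, although DRG replicate 2 was well below the other DRG libraries. Its log2 fold change was -2.45 ± 0.39 SE (edgeR adjusted p = 0.00108). Together the T-type rows summed to 27.6 to 43.6 CPM in DRG and to 63.1 to 72.8 CPM in spinal cord.

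The contrast within the T-type group does not depend on how libraries are scaled, because it can be read as a share of counts inside each library. The share of cacna1ha in the counts of these 3 genes was 81.1%, 90.0% and 84.3% in DRG, against 13.9%, 16.5% and 14.7% in spinal cord. For cacna1g the shares were 8.48%, 5.74% and 7.26% in DRG, against 65.0%, 59.8% and 63.9% in cord. The remaining share, that of cacna1ia, averaged 7.69% ± 3.14 in DRG and 22.0% ± 1.48 in cord (± SD over 3 libraries per tissue). The log2 ratio of cacna1g to cacna1ha within a library averaged -3.59 ± 0.36 in DRG and 2.07 ± 0.19 in cord, a difference of -5.65 between the tissues. Counts are not corrected for transcript length, so a share does not say which gene is the more abundant. Between tissues, a share compares a gene with the others of its group, and it also moves when those others change. These ratios were picked after their values were seen and carry no test. Of 66 log2 ratios between pairs of tested members, 62 did not overlap between the tissues.

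The high-voltage-activated pores differed less. The N-type gene cacna1ba, which encodes the main presynaptic calcium channel of many mammalian sensory neurons, had 137, 100.0 and 192 CPM in DRG, against 101, 125 and 111 CPM in spinal cord. DRG replicates 1 and 3 were above all cord libraries and DRG replicate 2 was below all of them. The log2 fold change was 0.35 ± 0.23 SE (edgeR adjusted p = 0.234), with a 95% interval from -0.19 to 0.89. Pool by pool, the log2 ratio of DRG to cord was 0.44 in pool 815, -0.32 in pool 816 and 0.79 in pool 818. Without DRG replicate 2 the gene passed at 0.54 (edgeR adjusted p = 0.039), and with library sizes alone its sign turned, at -0.57 (edgeR adjusted p = 0.131).

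The L-type gene cacna1c, whose product links depolarisation to gene expression in mammalian neurons and drives contraction in heart, was lower in DRG. It had 33.1, 21.6 and 40.2 CPM in DRG, against 53.5, 61.7 and 58.4 CPM in spinal cord, with no overlap. The log2 fold change was -0.87 ± 0.22 SE (edgeR adjusted p = 0.0105). In the RefSeq gene table, cacna1c overlaps the mRNA-decapping gene dcp1b, which had 108 to 125 counts per DRG library and 216 to 280 per cord library. The share of reads that lie in the overlap cannot be told from a count table.

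As parts of all alpha1 counts with a symbol, cacna1ba took 67.7%, 67.1% and 69.6% in DRG, against 46.4%, 48.2% and 46.6% in spinal cord. The libraries of a tissue lay close together on this measure although the CPM of cacna1ba itself overlapped. Its share also depends on the levels of the other alpha1 genes, so it does not show a change of cacna1ba itself. The share of cacna1c averaged 15.1% ± 1.05 in DRG and 24.3% ± 0.439 in cord, that of cacna1g 1.19% ± 0.151 in DRG and 18.0% ± 1.12 in cord, and that of cacna1ha 14.3% ± 2.02 in DRG and 4.31% ± 0.296 in cord (± SD over 3 libraries per tissue). The summed alpha1 level was 149 to 276 CPM in DRG and 218 to 259 CPM in cord, which overlap.

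**Figure D2:**
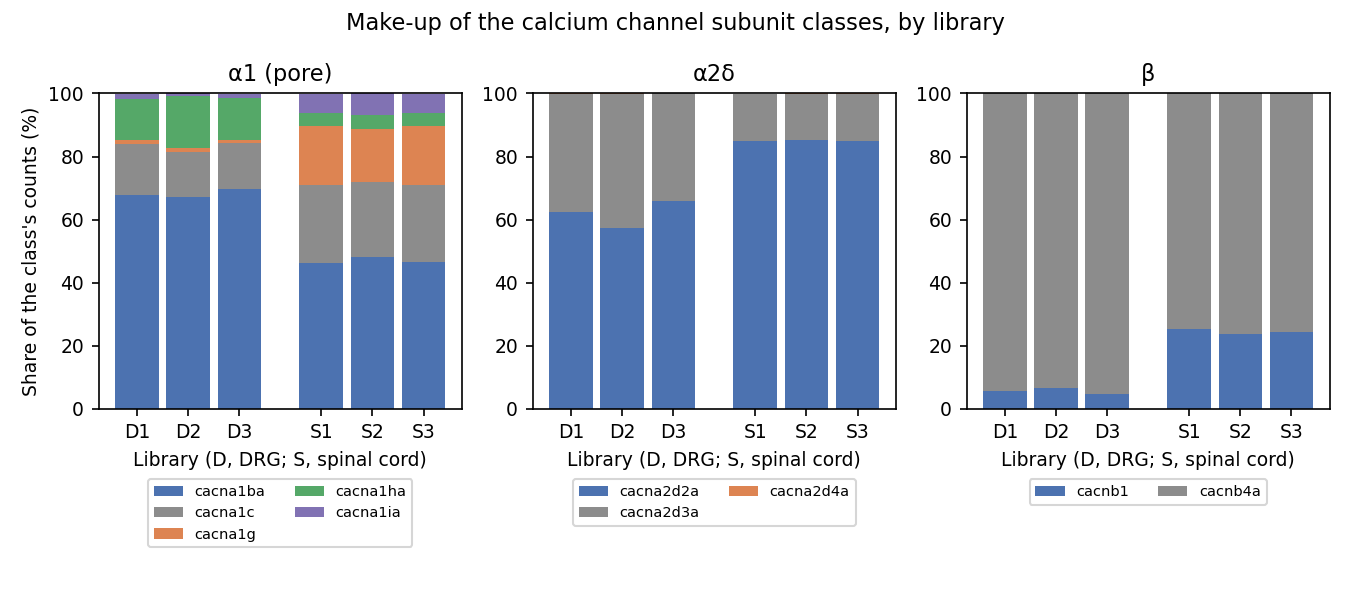
Share of counts (%) taken by each gene in the alpha1, alpha2delta and beta classes, 1 bar per library, with the 3 DRG libraries (D1 to D3) left of the 3 spinal cord libraries (S1 to S3). Libraries of a tissue resemble each other: cacna1g takes 1.06% to 1.35% of alpha1 counts in DRG and 16.8% to 18.9% in cord, and cacnb1 takes 4.77% to 6.59% of beta counts in DRG and 23.7% to 25.3% in cord.

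The alpha2delta subunits, extracellular proteins that raise the number of channels at the membrane and at nerve terminals, also went both ways. The gene cacna2d3a had 98.5, 74.1 and 98.1 CPM in DRG, against 48.3, 51.1 and 46.1 CPM in spinal cord. All DRG libraries were higher, and the log2 fold change was 0.90 ± 0.15 SE (edgeR adjusted p = 0.00145). For cacna2d2a, one of the genes whose mammalian product binds gabapentin, the levels were 164, 101 and 189 CPM in DRG, against 277, 294 and 263 CPM in cord. Here all DRG libraries were lower, with a log2 fold change of -0.88 ± 0.23 SE (edgeR adjusted p = 0.0116). Within the class, cacna2d3a took 37.5%, 42.3% and 34.1% of counts in DRG against 14.8%, 14.8% and 14.9% in cord.

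The third gene of the class, cacna2d4a, known from the mammalian retina, was too low to test, with 5, 6 and 0 counts in DRG and 15, 5 and 21 in spinal cord. Its span overlaps lrtm2a in the RefSeq table, a row with 204 to 288 counts per DRG library and 514 to 603 per cord library. In that table cacna1c, dcp1b and cacna2d4a follow each other.

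Beta subunits bind the alpha1 pore from the cytoplasm and protect it from degradation. The gene cacnb4a had 124, 88.9 and 195 CPM in DRG, against 59.1, 69.2 and 65.3 CPM in spinal cord. The DRG libraries spread more than the cord libraries but stayed above them, with a log2 fold change of 1.07 ± 0.27 SE (edgeR adjusted p = 0.00955), or 0.71 without DRG replicate 3. The gene cacnb1, which in mammals serves the skeletal muscle calcium channel and is also made in brain, had 7.26, 6.27 and 9.76 CPM in DRG, against 20.0, 21.5 and 21.0 CPM in cord. It was lower in DRG at a log2 fold change of -1.42 ± 0.20 SE (edgeR adjusted p = 0.000557). Muscle markers went both ways: 12 of 34 symbols matched, and 3 of 7 tested genes were higher in DRG and 1 was lower. Of all genes tested, 27.8% were higher and 28.1% lower. The muscle markers summed to 37.1 to 104 CPM in DRG and 54.7 to 92.9 CPM in cord. The muscle regulator myog was at or below 0.410 CPM in every library.

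Counts of cacnb4a made up 94.4%, 93.4% and 95.2% of the beta counts in DRG and 74.7%, 76.3% and 75.7% in spinal cord. The log2 ratio of cacnb1 to cacnb4a averaged -4.08 ± 0.25 in DRG and -1.63 ± 0.06 in cord (± SD over 3 libraries per tissue). Every DRG library lay below every cord library, but 62 of 66 pairs of tested members were likewise without overlap. The ratio carries no test. The summed beta level was 95.2 to 205 CPM in DRG and 79.1 to 90.6 CPM in cord.

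The largest difference among the members was that of cacng4b. Its mammalian counterpart belongs to the transmembrane AMPA receptor regulatory proteins, which share their fold with the calcium channel gamma subunit but act mainly on glutamate receptors. It had 1.03, 3.28 and 1.67 CPM in DRG, against 101, 79.4 and 80.0 CPM in spinal cord. The log2 fold change was -5.45 ± 0.37 SE (edgeR adjusted p = 1.77e-05), so the cord level was 43.8 times the DRG level, and 1.42% of all genes tested had a lower fold change. With 18, 56 and 37 counts in DRG replicates 1, 2 and 3, the size of this fold rests on few DRG reads, and leaving out DRG replicate 2 or 1 gave -5.98 or -5.16. DRG replicate 2, the highest of the 3 for this gene, was the lowest of them for cacna1g and cacna1ia.

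The sodium leak channel gene nalcn had 10.7, 11.8 and 17.5 CPM in DRG, against 52.7, 68.1 and 60.9 CPM in spinal cord. The tissues were well apart, with a log2 fold change of -2.18 ± 0.22 SE (edgeR adjusted p = 9.89e-05), a level 4.53 times as high in cord. Its accessory proteins could not be followed, because 0 of 6 symbols matched a row. In the RefSeq table its nearest listed protein-coding genes on one side are itgbl1 and then fgf14. Of these, itgbl1 was higher in DRG by 4.27 on the log2 scale (edgeR adjusted p = 8.86e-05), and fgf14 was lower, at -4.88 (edgeR adjusted p = 3.12e-06). On the other side, tmtc4 did not pass, at 0.32 (edgeR adjusted p = 0.334).

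The sodium channel beta subunit gene scn3b was the member with the largest increase in DRG. It encodes a single-pass membrane protein with an immunoglobulin-like domain that associates with sodium channel alpha subunits. Its level was 38.0, 41.3 and 49.9 CPM in DRG, against 8.76, 9.74 and 8.68 CPM in spinal cord. The log2 fold change was 2.25 ± 0.16 SE (edgeR adjusted p = 2.02e-05), a 4.75-fold higher level, and 93.9% of all genes tested had a lower fold change. It was also the single member called higher with library sizes alone, at 1.31 (edgeR adjusted p = 0.00101). The log2 ratio of nalcn to scn3b within a library averaged -1.72 ± 0.18 in DRG and 2.74 ± 0.13 in cord (± SD over 3 libraries per tissue). Like the other ratios, it carries no test and is 1 of 62 among 66 pairs without overlap.

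**Figure D3:**
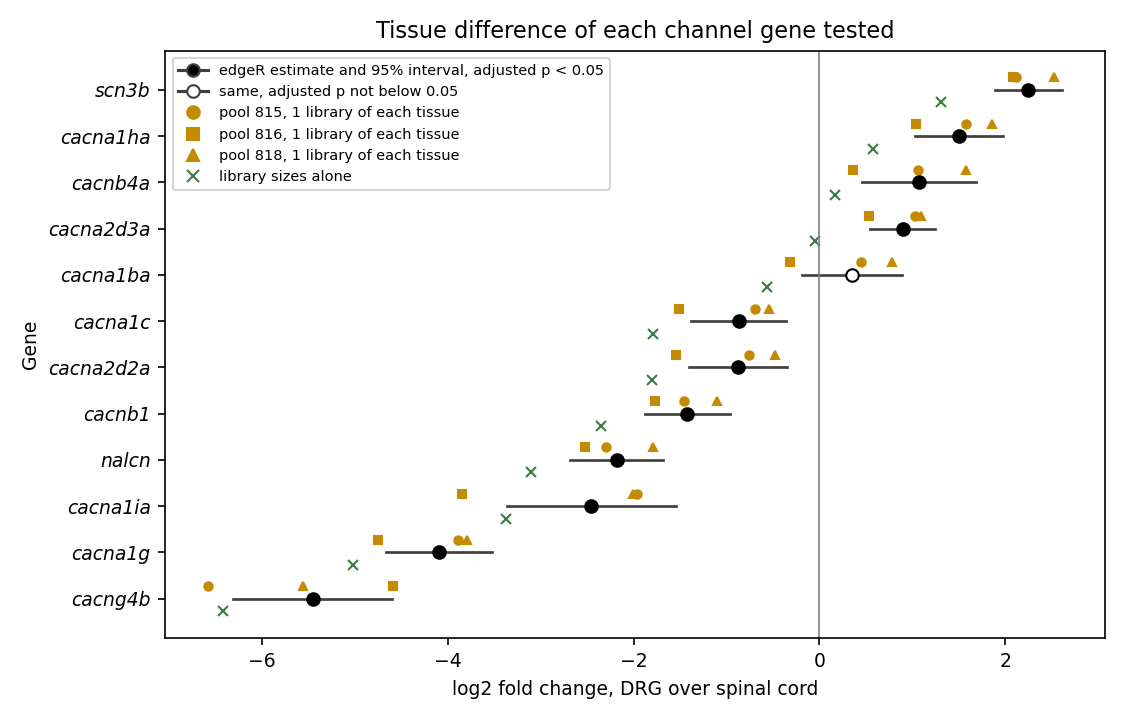
Difference between DRG and spinal cord as log2 fold change for the 12 members tested, with the edgeR estimate and 95% interval in black, the value of each pool (1 library per tissue, 0.5 added to each count) in yellow and the edgeR estimate with library sizes alone as green crosses. Estimates run from -5.45 for cacng4b to 2.25 for scn3b; the interval of cacna1ba includes 0, and with library sizes alone every cross lies to the left of its estimate, those of cacna2d3a and cacna1ba below 0.

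Libraries of a tissue ranked alike for most members. Of the 12 tested members, 9 had their lowest DRG level in replicate 2 and 10 their highest in replicate 3. In spinal cord 10 of 12 were highest in replicate 2, which carries the same pool number, 816. How many of all genes tested ranked this way was not counted, so the pattern cannot be called particular to the channel genes. All 13 members summed to 646, 476 and 837 CPM in DRG replicates 1, 2 and 3, against 785, 852 and 785 CPM in cord. The 10 neuron markers in the table went both ways in DRG. Their sum was 20903, 22827 and 21130 CPM, highest in replicate 2. Most of it came from neflb, at 12263, 13773 and 13167 CPM, and stmn2b and uchl1 were highest in replicate 2 as well. In contrast, elavl3 was lowest there, at 41.4, 34.5 and 71.1 CPM, and so were syt1a, gap43, syn2b, ncam1a and snap91a. The level of elavl4 was lowest in replicate 3. The sum of connective tissue markers was highest in replicate 2, at 2353, 3464 and 1419 CPM. What part these cell types had in the spread was not tested. Without DRG replicate 2, none of the 11 calls was lost, and all 11 were also kept without any other single library.

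Partners of the channels were followed in lists drawn up by their roles. Over all genes tested, 27.8% were called higher in DRG and 28.1% lower, at a median log2 fold change of -0.04. Of 9 tested partners of sodium channels, 2 were higher in DRG and 6 lower, with a median log2 fold change of -0.93. The largest decrease was that of fgf14, an intracellular fibroblast growth factor homologue that binds sodium channel tails. It had 0.801, 0.762 and 1.13 CPM in DRG, against 26.9, 27.9 and 25.8 CPM in spinal cord, with a log2 fold change of -4.88 ± 0.22 SE (edgeR adjusted p = 3.12e-06). Its relative fgf13a was higher in DRG, at 134, 141 and 116 CPM against 54.5, 49.9 and 48.9 CPM in cord, with a log2 fold change of 1.35 ± 0.13 SE (edgeR adjusted p = 0.000101). With library sizes alone it was at 0.38 and the call was lost (edgeR adjusted p = 0.0527). The third relative, fgf12a, did not pass at 0.30 ± 0.29 SE (edgeR adjusted p = 0.395), and its sign turned without DRG replicate 3.

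Among the other sodium channel partners, the paranodal adhesion gene cntnap1 was higher in DRG, with 289, 198 and 373 CPM against 83.9, 119 and 111 CPM in cord (log2 fold change 1.46 ± 0.25 SE, edgeR adjusted p = 0.00155). That call was also lost with library sizes alone, at 0.53 (edgeR adjusted p = 0.157). The syntrophin scaffold gene sntb1 was lower, at -2.71 ± 0.21 SE (edgeR adjusted p = 3.1e-05). The neurofascin gene nfasca, whose product anchors at nodes and paranodes, had 223, 185 and 368 CPM in DRG, against 857, 1044 and 952 CPM in cord, with a log2 fold change of -1.88 ± 0.27 SE (edgeR adjusted p = 0.000569). Markers of peripheral glia, the cells that wrap axons at the paranode, went both ways. Of 8 tested genes, egr2b, foxd3, s100b and pmp22b were higher in DRG and mpz, mbpa, plp1a and sox10 lower. The shares of all genes tested were 27.8% higher and 28.1% lower. The list summed to 6680 to 11312 CPM in DRG and 35802 to 44398 CPM in cord, most of it in cord from the myelin genes mpz, at 2644 ± 1129 CPM in DRG and 31499 ± 4454 CPM in cord, and mbpa, at 2075 ± 631 CPM in DRG and 8028 ± 90.6 CPM in cord (SD, n = 3 each). Myelin basic protein and sox10 also mark myelinating cells of the central nervous system. Their part in the partner results was not tested.

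Of 13 tested partners of calcium channels, 2 were higher in DRG and 8 lower, where 27.8% of all genes were called higher and 28.1% lower. The median log2 fold change of the 13 was -0.59. Genes of the RIM family, which tether calcium channels at release sites, went in opposite directions. The long-form gene rims2a had 111, 91.6 and 124 CPM in DRG, against 71.8, 78.1 and 72.6 CPM in spinal cord, a log2 fold change of 0.55 ± 0.15 SE (edgeR adjusted p = 0.0128). That call was lost without cord replicate 1 or 3 (edgeR adjusted p = 0.053 and 0.0582), and the sign turned with library sizes alone, at -0.38. In contrast, rims3 had 5.32, 9.67 and 2.44 CPM in DRG, against 77.9, 84.0 and 85.9 CPM in cord, with a log2 fold change of -3.84 ± 0.43 SE (edgeR adjusted p = 0.000168). The related rims4 was also lower in DRG, at -1.89 ± 0.28 SE (edgeR adjusted p = 0.000684).

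Regulators of the calcium channel pore and its beta subunit were split as well. The small GTPase gene rrad, which restrains L-type channels in mammals, had 3.77, 5.80 and 7.01 CPM in DRG, against 1.17, 1.04 and 1.59 CPM in cord (log2 fold change 2.12 ± 0.36 SE, edgeR adjusted p = 0.0015). The gene cbarpb, whose mammalian product binds beta subunits and lowers calcium current, had 14.1, 8.62 and 16.8 CPM in DRG, against 43.1, 50.7 and 37.4 CPM in cord (log2 fold change -1.73 ± 0.25 SE, edgeR adjusted p = 0.000642). The remaining partners rem1, stac, stac3 and tmem37 were too low to test.

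Of 14 tested genes for release and uptake of calcium inside the cell and related channels, 3 were higher in DRG and 3 lower. Neither share was above that of all genes tested, 27.8% higher and 28.1% lower. The median log2 fold change of the 14 was -0.22. The mitochondrial calcium uniporter gene mcu was higher in DRG at 0.64 ± 0.16 SE (edgeR adjusted p = 0.0108). The gene micu3a, a regulator of the uniporter, was higher too and had a log2 fold change of 0.93 ± 0.15 SE (edgeR adjusted p = 0.00116). With library sizes alone mcu and micu3a stood at -0.30 and -0.01. The inositol trisphosphate receptor genes itpr1b and itpr3 and the ryanodine receptor gene ryr3, which release calcium from stores, were lower in DRG, at -1.21, -0.82 and -1.005 on the log2 scale (edgeR adjusted p = 0.000101, 0.0226 and 0.0145). The call of itpr3 was lost without DRG replicate 1 or 2 or cord replicate 1 or 3 (edgeR adjusted p up to 0.0855), and that of ryr3 without DRG replicate 1 or cord replicate 3 (edgeR adjusted p up to 0.0525). The proton channel gene hvcn1 had 1.49, 3.34 and 1.27 CPM in DRG, against 0.255, 0.474 and 0.538 CPM in cord, a log2 fold change of 2.25 ± 0.56 SE (edgeR adjusted p = 0.00982). With library sizes alone it was at 1.25 and the call was lost (edgeR adjusted p = 0.0678).

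**Figure D4:**
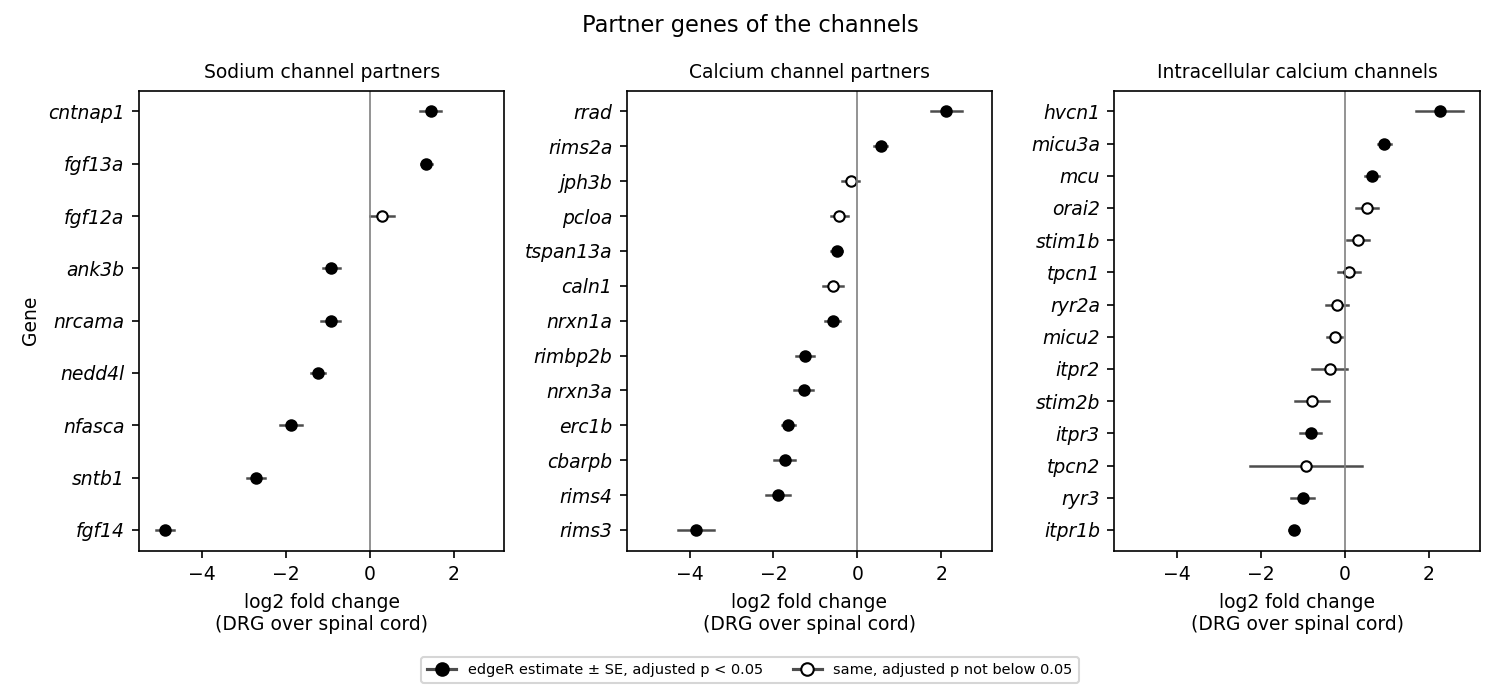
Log2 fold change, DRG over spinal cord, with its SE for the tested genes of the partner lists: sodium channel partners, calcium channel partners and intracellular calcium channels with related genes. Filled points passed an edgeR adjusted p of 0.05; fgf14 (-4.88) and rims3 (-3.84) lie furthest to the left and hvcn1 (2.25) and rrad (2.12) furthest to the right.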

How the data were processed

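PolyA-selected, stranded, paired-end libraries were made from pooled tissue, per the labels' protocols. The authors deposited raw whole-number counts per gene. HISAT2 2.2.0, featureCounts, Trimmomatic, SAMtools and edgeR 4.4 are named without settings, per the submitters' processing notes; strand setting and genome build are not given in the sources used here, so overlapping genes and near-identical copies may share reads. A RefSeq gene table (Leri_hhj_1) matched 21518 of 22111 row names and all 13 members, and was used only for names and neighbours.

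A total of 24 rows without a gene name (1.02% to 2.04% of counts) were left out. Genes were tested with edgeR 4.0.16 in R 4.3.3 (filterByExpr, TMM, glmQLFit, glmQLFTest; a model of tissue alone; Benjamini-Hochberg over 16112 genes; threshold 0.05), checked on simulated data. In the simulation few genes changed, equally in both directions, whereas 55.9% of genes were called here. It could therefore not check the scaling between the tissues. SE is the size of the log2 fold change divided by the square root of F. Floors cover counting error only. Members, lists and naming rule were chosen with earlier results of these data known. The rule names every member and, per partner list and direction, the 3 largest changes past the threshold with at least 1 CPM. The genes fgf12a, mcu, itgbl1 and tmtc4 were added after their values were seen. A pair of partner genes is not reported here and is left out of the list counts, which brought in nfasca by the same rule. Pool numbers were taken to pair the libraries, since the labels list them as batches, but the main test did not use this pairing. Deviations from tissue means correlated at 0.51, -0.25 and -0.16 in pools 815, 816 and 818. Alternatives used DESeq2 1.42.0 and limma 3.58.1 (voom), other scalings and filters, a replicate block and leaving out each library. Figures used matplotlib 3.10.9.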

Additional observations from a re-analysis of the deposited data

How the results depend on the processing

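The numbers of members higher and lower in DRG were 4 and 7 with DESeq2 size factors, upper quartile factors, no filter, at least 10 counts in every library, DESeq2, limma voom and the replicate block, which changed no call of a member or named partner. Leaving out each library gave 4 to 5 higher and 7 lower members, a median log2 fold change of -1.09 to -0.66, and 6 to 8 higher and 13 to 18 lower partner genes. With library sizes alone there was 1 higher member, 1 higher partner gene against 7, 25 lower partner genes against 17, and a member median of -1.80; the log2 fold changes of cacna1ba, cacna2d3a, rims2a, micu3a, mcu and fgf12a turned to -0.57, -0.046, -0.38, -0.014, -0.30 and -0.60. Leaving out 1 library put fgf12a between -0.13 and 0.50. Scaling by library sizes alone moves the median of all genes to -0.99. Relative to that median, cacna2d3a was at 0.94 and cacna1ba at 0.42, beside 0.93 and 0.39 with TMM. A change of scaling shifts all genes by nearly the same amount, so these relative values had to stay close. They do not test which scaling is right. Of 168 values of members under 14 alternatives, 163 kept direction and side of the threshold. A further 2 lost the call with their direction kept, 1 gained it and 2 changed sign. The 2 that changed sign were cacna1ba, which was not called with TMM, and cacna2d3a, whose call was lost as well. With 5 to 21 counts in cord, cacna2d4a was too shallow to test.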
